A study of Mus musculus with 12 samples.

Results

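*Ptgir*, *Ptger4* and *Ptgs1* encode the prostacyclin receptor, the prostaglandin E2 receptor EP4 and cyclooxygenase 1, and their mRNA levels were compared between airway macrophages (AMs) of *Scnn1b*-Tg and wildtype (WT) mice. These 3 genes are 3 of the 19161 rows of a count table without gene names, of which 1999 could be given an identity. The identities came through a published table ranked by the same genotype contrast, so the genes were chosen by values of that contrast, and their genotype differences are given as a description. Cyclooxygenase 1 turns arachidonic acid into the precursor of all prostanoids, and synthases then make prostaglandin E2, prostacyclin or thromboxane from it. The prostacyclin receptor and EP4 are receptors on the cell surface that couple to the stimulatory G protein and raise cyclic AMP. In macrophages, including those of the lung, prostaglandin signals through cyclic AMP are known for restraining phagocytosis and the release of inflammatory cytokines.

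The study asked how AMs change in mice whose airways are obstructed by mucus. *Scnn1b*-Tg mice carry a transgene for the beta subunit of the epithelial sodium channel, driven in airway epithelium by the CCSP promoter, on the C57BL/6 background, and the WT mice were their littermates. That promoter is one of epithelium, not of the macrophages that were sequenced. All mice were 6-week-old females without treatment, and AMs were sorted as CD45, Siglec-F and CD11c positive cells from dissociated lungs. RNA of 6 *Scnn1b*-Tg and 6 WT mice gave 12 libraries. Batches 1, 2 and 3 hold 1 library of each genotype and batch 4 holds 3 of each. Within batch 4 the WT and *Scnn1b*-Tg titles name different flow cells, so that flow cell and genotype cannot be told apart there. The methods describe paired-end SMART-Seq libraries and single-end directional libraries without stating the kind of each, so that library kind and batch cannot be told apart either. Library totals ran from 65764040 to 121813289 counts in batches 1 to 3 and from 40259958 to 51832335 in batch 4. Levels are in CPM, counts scaled to a common library total with edgeR's TMM factors, and n is 6 libraries per genotype unless stated.

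The libraries carried the markers of AMs. Of 17 AM markers, 10 had an identified row, and none of the 10 was at 0 in any of the 12 libraries. Their summed level lay between 27970 and 39710 CPM in WT and between 27610 and 66640 CPM in *Scnn1b*-Tg, and *Chil3*, which encodes a secreted chitinase-like protein, was the most abundant. The gene of the sorting marker Siglec-F, *Siglecf*, lay between 279 and 585 CPM in WT and between 239 and 473 CPM in *Scnn1b*-Tg libraries. Within every batch the *Scnn1b*-Tg libraries were the lower ones (log2 difference −0.31, adjusted p = 0.0895 by edgeR's quasi-likelihood test). *Itgax*, the gene of CD11c, had no identified row and was not analysed here.

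*Ptgir* was the receptor whose levels separated the genotypes in every batch. In WT libraries it lay at 17.2, 18.7 and 8.07 CPM in batches 1, 2 and 3 and at 12.0, 13.6 and 11.7 CPM in batch 4, with a median of 12.8 CPM. In *Scnn1b*-Tg libraries it lay at 94.4, 56.5 and 38.6 CPM in batches 1, 2 and 3 and at 32.9, 33.5 and 43.6 CPM in batch 4, with a median of 41.1 CPM. The groups did not overlap, since the lowest *Scnn1b*-Tg library was above the highest WT library, and the *Scnn1b*-Tg library of batch 1 stood highest. The share of all rows that separate in this way was not counted. Because the gene was also chosen by this contrast, nothing is read from the separation. The ratio of *Scnn1b*-Tg to WT was 5.49 in batch 1, 3.02 in batch 2, 4.78 in batch 3 and 2.95 in batch 4. The means were 49.9 ± 23.4 CPM in *Scnn1b*-Tg and 13.6 ± 3.89 CPM in WT (SD, n = 6 each). These levels rest on 462 to 1781 counts per WT library and 1617 to 9304 per *Scnn1b*-Tg library, and each SD spans the batches as well as the mice. In bulk RNA, fewer cells of a type and less RNA per cell cannot be told apart, for this gene as for those that follow.

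*Ptger4* showed a different pattern, with WT levels near 0 in batches 1 to 3 and plain expression in both genotypes in batch 4. In batches 1, 2 and 3 the WT libraries had 0.249, 0.672 and 0.314 CPM, from 17, 64 and 18 counts. The *Scnn1b*-Tg libraries of the same batches had 25.6, 26.3 and 19.5 CPM, from 2524, 2308 and 1362 counts. In these 3 batches the groups lay far apart, with *Scnn1b*-Tg to WT ratios of 103, 39.1 and 62.2. In batch 4 the WT libraries had 40.1, 18.1 and 26.2 CPM and the *Scnn1b*-Tg libraries 62.6, 56.3 and 37.8 CPM, a ratio of means of 1.86. The groups of batch 4 overlapped, because 1 WT library stood above the lowest *Scnn1b*-Tg library. All 3 WT libraries of batch 4 were far above the 3 WT libraries of the other batches, at a mean of 28.2 ± 11.2 against 0.411 ± 0.228 CPM (SD, n = 3 each).

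*Ptgs1*, the cyclooxygenase, differed least between the genotypes. Its WT levels were 20.1, 26.7 and 12.2 CPM in batches 1, 2 and 3 and 6.64, 7.62 and 12.0 CPM in batch 4, with a median of 12.1 CPM. Its *Scnn1b*-Tg levels were 49.5, 26.5 and 16.5 CPM in batches 1, 2 and 3 and 13.9, 17.2 and 14.4 CPM in batch 4, with a median of 16.9 CPM. The groups overlapped over all libraries, where only the *Scnn1b*-Tg library of batch 1 stood above every WT library. Within batch 4 they did not overlap, at 15.1 ± 1.79 CPM in *Scnn1b*-Tg against 8.75 ± 2.84 CPM in WT (SD, n = 3 each). Here too the share of all rows that separate was not counted, and nothing is read from it. The ratio of *Scnn1b*-Tg to WT was 2.46 in batch 1, 0.996 in batch 2, 1.36 in batch 3 and 1.73 in batch 4.

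**Figure D1:**
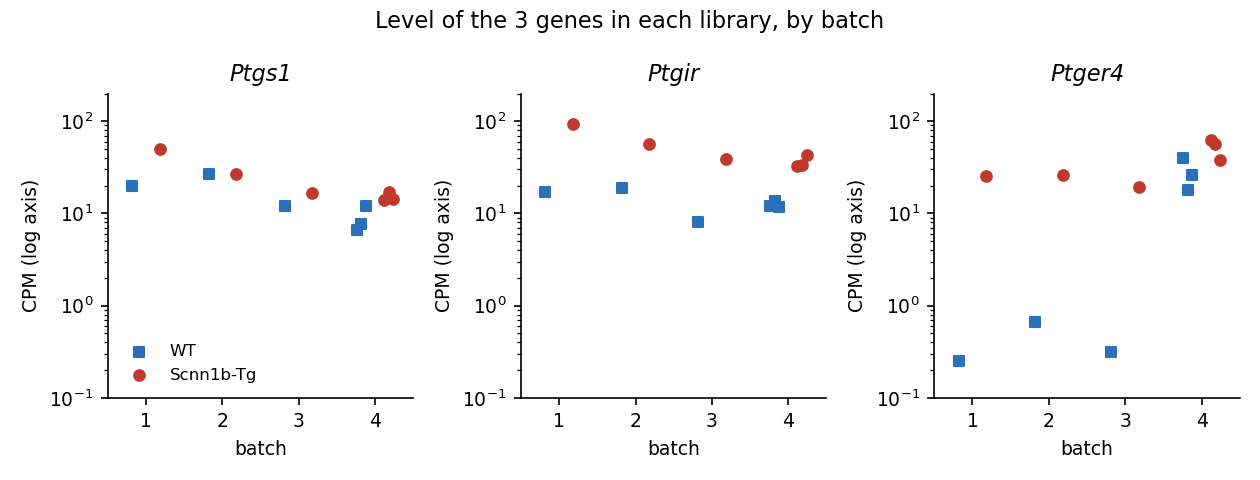
CPM of *Ptgs1*, *Ptgir* and *Ptger4* on a log axis in each of the 12 libraries, by batch, with WT as blue squares and *Scnn1b*-Tg as red circles. *Ptgir* separates the genotypes in each batch, while the WT level of *Ptger4* is at most 0.672 CPM in batches 1 to 3 and between 18.1 and 40.1 CPM in batch 4.

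The genotype contrast, which chose these genes, is given as fitted values with no support drawn from them. With batch as block, edgeR's quasi-likelihood test gave log2 fold changes of 1.83 for *Ptgir* (standard error 0.16, Benjamini-Hochberg adjusted p = 0.00195), 3.19 for *Ptger4* (0.99, adjusted p = 0.389) and 0.69 for *Ptgs1* (0.20, adjusted p = 0.328). A gene is called a differentially expressed gene (DEG) here at an adjusted p under 0.1 with an absolute log2 fold change above 0.5. By this rule 1 of the 3 genes, *Ptgir*, was a DEG, as were 60 of 16972 rows tested (0.354%), 50 of them higher and 10 lower in *Scnn1b*-Tg. DESeq2's Wald test called 3 of 3, with log2 fold changes of 1.82, 3.38 and 0.68 for *Ptgir*, *Ptger4* and *Ptgs1* and adjusted p of 4.57e-26, 0.00461 and 0.0521, and it called 248 of 14663 rows (1.69%). In simulated data, DESeq2's and limma-voom's calls held far more false ones than the threshold allows, and edgeR's about as many as it allows, in a simulation that used edgeR's own dispersions. Fitted on batches 1 to 3 alone with edgeR, *Ptgir* had a log2 fold change of 2.10 (adjusted p = 0.348), and without the batch as block it had 1.88 (adjusted p = 0.402), so that its call ended in both. In batch 4 alone *Ptgir* had 1.56 (adjusted p = 0.0216).

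Whether the genotype effect differed between batch 4 and batches 1 to 3 was tested with a coefficient of its own, on the same libraries. For *Ptger4* this test is not independent of the contrast that chose the genes, because the 3 WT libraries near 0 enter both. The effect of *Ptger4* was smaller in batch 4, with a log2 difference of −5.03 (standard error 0.51, adjusted p = 0.0149 by edgeR's quasi-likelihood test). For *Ptgir* the difference was −0.54 (0.26, adjusted p = 0.778) and for *Ptgs1* 0.21 (0.40, adjusted p = 0.981), and neither passed the threshold of 0.1. In simulated data this test found only a small share of changed rows, so that a missed call says little. Thus 1 of the 3 genes was called, while 19 of 16972 rows (0.112%) were. The difference, batch 4 minus batches 1 to 3, was positive in 17 of these 19 rows and negative in 2, *Ptger4* and *Ube2w*, which encodes a ubiquitin-conjugating enzyme. By limma-voom the *Ptger4* difference was −4.92 with adjusted p = 0.357 and was not called.

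*Ube2w* and *Ptger4* reached their negative differences in opposite ways, since the genotype effect of *Ube2w* was −0.08 in batches 1 to 3 and −1.80 in batch 4, and that of *Ptger4* was 5.94 and 0.89. *Ube2w* lay between 63.0 and 90.5 CPM in the 6 libraries of batches 1 to 3 with no separation by genotype, and in batch 4 at 29.6 to 30.9 CPM in WT and 6.12 to 10.9 CPM in *Scnn1b*-Tg. For *Ptger4* the genotypes lay far apart in batches 1 to 3 and overlapped in batch 4. Of the identified genes of the response to tissue dissociation, 5 were higher in batch 4 and 1, *Ier3*, was lower (−1.52), and *Hspa1a* was not called (0.12), where 59.3% of all rows were called. The summed level of the 7 identified genes of 14 on that list was 293.6 to 438 CPM in batches 1 to 3, and in batch 4 it was 427 to 473 CPM in WT and 893 to 1128 CPM in *Scnn1b*-Tg, with *Zfp36* the most abundant gene and no gene at 0. On that list 1 of 7 genes, *Fosb*, which encodes a subunit of the transcription factor AP-1, had a called batch difference in genotype effect. It was 1.78 (standard error 0.27, adjusted p = 0.0959 by edgeR's quasi-likelihood test), in a test that called 19 of 16972 rows (0.112%). Between genotypes the 7 genes had a median log2 fold change of 1.02, with 6 higher at an unadjusted p under 0.05 (8.64% of all rows). Of them edgeR called 0 (0.354%), DESeq2 3 higher (1.69%) and limma-voom 1 (0.572%). These genotype counts and the median say nothing about the response, because a row could be identified only through the table ranked by this contrast. In batch 4 alone edgeR called *Fosb* (2.0), *Zfp36* (0.85) and *Atf3* (0.84) and not the rest of the list, with 52 DEGs among 14015 rows. The part of this response in the levels of *Ptger4*, *Ptgir* and *Ptgs1* was not tested.

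The level in batch 4 against batches 1 to 3, with genotype in the fit, is a contrast other than the one that chose the genes. For *Ptger4* it is not independent of that one, because the 3 WT libraries near 0 enter both. *Ptger4* rose in batch 4 by 3.44 on the log2 scale (standard error 0.99, adjusted p = 0.0145), while *Ptgs1* was lower there, at −1.01 (0.19, adjusted p = 0.00136), and *Ptgir* was lower at −0.43 (0.15, adjusted p = 0.0363), by edgeR's quasi-likelihood test. All 3 passed at an adjusted p under 0.1, and so did 10062 of 16972 rows (59.3%), 4818 higher and 5244 lower in batch 4, so that passing says little about these genes. The *Ptgir* call was lost without the *Scnn1b*-Tg library of batch 1 (−0.27), that of batch 3 (−0.31) or the WT library of batch 2 (−0.34). The rise of *Ptger4* was 1.71 by limma-voom and 2.69 to 4.14 with each library left out, and it was called in each of these. The levels of *Ptger4* and *Ptgs1* in batch 4 thus moved in opposite directions.

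Per kilobase of annotated exon, *Ptgir* was the highest of the 3 genes in 6 of 6 *Scnn1b*-Tg libraries but in 1 of 6 WT libraries, where *Ptgs1* was highest in 3 and *Ptger4* in 2. In *Scnn1b*-Tg libraries the median was 12.3 CPM per kb for *Ptgir*, 4.82 for *Ptger4* and 4.34 for *Ptgs1*. *Ptgir* ran from 9.86 to 28.3 CPM per kb there, above all 6 values of *Ptger4* (2.94 to 9.41), while *Ptgs1* (3.57 to 12.7) overlapped both. That order rests on the length taken for *Ptger4*, because over the 3312 bases of its longer coding transcript it ran from 5.90 to 18.9 CPM per kb in *Scnn1b*-Tg and overlapped *Ptgir*, which was then the highest in 4 of 6 *Scnn1b*-Tg and 0 of 6 WT libraries. In WT libraries, over annotated exon bases, the medians were 3.85 CPM per kb for *Ptgir*, 3.11 for *Ptgs1* and 1.41 for *Ptger4*, and the ranges of all 3 overlapped. The WT median of *Ptger4* mixes 0.0374 to 0.101 CPM per kb in batches 1 to 3 with 2.72 to 6.04 in batch 4. *Ptgs1* was the highest in each WT library of batches 1 to 3, and *Ptger4* in 2 of those of batch 4. Over annotated exon bases the order of *Ptgs1* and *Ptger4* differed between batches and not, within a batch, between genotypes. *Ptgs1* was above *Ptger4* in every library of batches 1 to 3, and below it in every library of batch 4. A further comparison took *Ptger4* over the 3312 coding transcript bases and left *Ptgs1* over its 3884 annotated exon bases. *Ptger4* was then also above *Ptgs1* in the *Scnn1b*-Tg libraries of batch 2 (7.93 against 6.83 CPM per kb) and batch 3 (5.90 against 4.26). The coding transcript of *Ptgs1* has 2867 bases, over which its values would be higher, so that this order is not settled.

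The gene models limit what the *Ptger4* row can show. *Ptgir* (ENSMUSG00000043017) lies on the plus strand at chr7:16906490-16910905 of GRCm38 and has 2 transcripts, 3334 exon bases and no overlapping gene. *Ptgs1* (ENSMUSG00000047250) lies on the plus strand at chr2:36230426-36252272 with 5 transcripts and 3884 exon bases, of which 148 are shared with *Gm43621* on the opposite strand. *Ptger4* (ENSMUSG00000039942) lies on the minus strand at chr15:5206661-5244187 with 3 transcripts and 6648 exon bases. Its coding transcripts, of 3264 and 3312 bases, end at 5233399. A processed transcript of 3771 bases without a coding sequence reaches on to 5206661, where it shares 1015 exon bases with the pseudogene *Gm15937* and 82 with *Ttc33*, both on the opposite strand. Because the counts were made without strand and summed over transcripts, neither the coding share of the *Ptger4* counts nor a share from these neighbours can be told apart, and *Gm15937* and *Ttc33* had no identified row and were not analysed here.

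**Figure D2:**
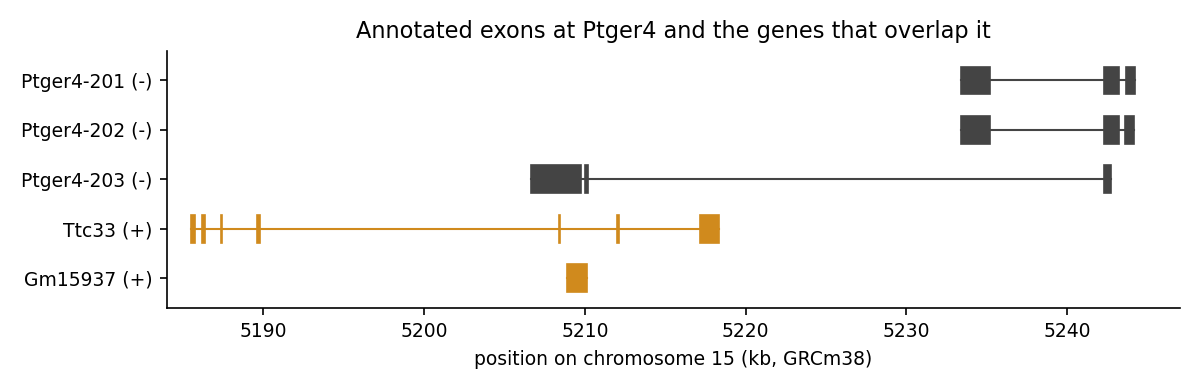
Annotated exons (boxes) of the 3 *Ptger4* transcripts in grey and of the 2 overlapping genes *Ttc33* and *Gm15937* in orange, against the position on chromosome 15 of GRCm38 in kilobases, with the strand in brackets. The longest *Ptger4* model, a processed transcript, holds the exons that overlap *Gm15937*, apart from the coding transcripts, which end at 5233399.

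The promoters of the 3 genes are shown because 3 genes of 1 pathway differed in how they varied among batches and genotypes. The 250 bases before each start come from RefSeq on GRCm38.p6, at chr7:16906240-16906489 on the plus strand, chr15:5244188-5244437 on the minus strand and chr2:36230176-36230425 on the plus strand for *Ptgir*, *Ptger4* and *Ptgs1*. Capitals mark the matches found on either strand for the 7 motifs searched, which were the TATA box TATAAA, the CCAAT box CCAAT, the GC box GGGCGG, AP-1 TGANTCA, the cyclic AMP response element TGACGTCA, PU.1 GAGGAA and the E-box CACGTG.
Ptgir: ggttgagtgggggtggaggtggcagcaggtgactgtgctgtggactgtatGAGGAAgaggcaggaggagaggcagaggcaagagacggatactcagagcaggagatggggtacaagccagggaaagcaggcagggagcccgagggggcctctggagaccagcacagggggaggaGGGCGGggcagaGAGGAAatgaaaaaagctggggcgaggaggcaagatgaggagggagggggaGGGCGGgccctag
Ptger4: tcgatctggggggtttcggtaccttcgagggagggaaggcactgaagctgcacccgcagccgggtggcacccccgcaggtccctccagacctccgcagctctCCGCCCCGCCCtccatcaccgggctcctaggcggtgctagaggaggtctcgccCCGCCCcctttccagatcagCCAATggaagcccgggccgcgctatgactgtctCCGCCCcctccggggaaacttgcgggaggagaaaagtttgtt
Ptgs1: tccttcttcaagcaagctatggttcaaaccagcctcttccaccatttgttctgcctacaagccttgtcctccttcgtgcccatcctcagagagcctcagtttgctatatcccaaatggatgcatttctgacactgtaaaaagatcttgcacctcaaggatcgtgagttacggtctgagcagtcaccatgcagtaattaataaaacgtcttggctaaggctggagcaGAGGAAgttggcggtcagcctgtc
The *Ptgir* window had 63.6% G and C, 5 CpG sites, 2 GC boxes and 2 PU.1 matches. The *Ptger4* window had 66.8% G and C, 19 CpG sites, 4 GC boxes on the minus strand, 2 of which overlap by 1 base, and 1 CCAAT box. The *Ptgs1* window had 48.0% G and C, 5 CpG sites and 1 PU.1 match. *Ptger4* thus had the most CpG sites, against a median of 6 CpG sites and 52.4% G and C over 32851 promoters of this length. Of all these promoters 32.7% held the GC box, 33.8% the CCAAT box, 23.3% the PU.1 letters, 12.4% the TATA box, 6.75% the AP-1 letters, 6.02% the E-box and 1.55% the cyclic AMP response element. The matches are descriptions of letters and not of bound sites.

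No further prostanoid gene was a DEG by edgeR. Of 34 genes on a list of the pathway, from arachidonate release to breakdown, 9 had an identified row, and *Ptgir* was the 1 DEG, higher in *Scnn1b*-Tg, with 0 lower. Over the 9 genes the median log2 fold change was 0.39, against 0.01 over all rows tested. At an unadjusted p under 0.05 edgeR gave 7 of the 9 higher and 2 lower, against 1467 of 16972 rows (8.64%). DESeq2's Wald test called 4 higher, against 1.69% of all rows, and limma-voom called 1, against 0.572%. Nothing is read from these counts or this median, nor from those of the lists that follow, because a row could be identified only through the table ranked by this contrast. *Tbxas1*, the thromboxane synthase, was the only terminal synthase with a row, at a median of 146 CPM in *Scnn1b*-Tg and 116 CPM in WT, and its log2 difference was 0.28 (standard error 0.12, adjusted p = 0.565). The enzymes that break prostaglandins down had levels that overlapped between the genotypes over all batches, though not within each. *Hpgd*, which oxidises prostaglandins, ran from 6.50 to 30.7 CPM in WT and from 3.25 to 26.7 CPM in *Scnn1b*-Tg (−0.55, 0.19, adjusted p = 0.461), and *Ptgr1*, which acts after it, stood at 0.20 (0.08, adjusted p = 0.486). In batch 4 *Hpgd* lay at 6.50 to 8.44 CPM in WT and lower, at 3.25 to 4.21 CPM, in *Scnn1b*-Tg, and in batches 1 to 3 *Ptgr1* lay at 42.7 to 49.98 CPM in WT and higher, at 55.4 to 60.6 CPM, in *Scnn1b*-Tg. *Ptgfrn*, which encodes a partner protein of the prostaglandin F receptor, had −0.20 (0.05, adjusted p = 0.287), and *Pla2g16*, which encodes a phospholipase, had 0.39 (0.10, adjusted p = 0.235).

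*Ptgs2*, which encodes the inducible cyclooxygenase, was near the limit of detection. WT libraries had 0 counts in 5 of 6, and the WT library of batch 2 had 137. *Scnn1b*-Tg libraries had 30, 66 and 0 counts in batches 1, 2 and 3, and 78, 29 and 17 in batch 4. In batch 4 all 3 *Scnn1b*-Tg libraries had counts and the 3 WT libraries had none, while in CPM the WT library of batch 2 (1.44) stood near the highest *Scnn1b*-Tg library (1.52). On the log2 scale the fitted difference, 6.03 (1.85, adjusted p = 0.392), depends on the prior count and was not called by edgeR's quasi-likelihood test. DESeq2's Wald test called it at 5.97 with adjusted p = 0.0153.

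Most prostanoid genes differed in level between the batches, but so did most rows, so that passing says little about this list. In batch 4, 3 of the 9 prostanoid genes were higher and 5 lower than in batches 1 to 3 at an adjusted p under 0.1, against 59.3% of all rows called in either direction. *Ptgfrn* rose there by 1.42 on the log2 scale (standard error 0.05), and *Hpgd* was lower at −1.86 (0.20), *Ptgr1* at −1.03 (0.08) and *Pla2g16* at −0.80 (0.10). *Tbxas1* rose by 0.50 (0.12).

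Neighbouring pathways were looked at on a further pair of lists. Of 15 genes of other lipid mediators, 4 had an identified row and 0 were DEGs by edgeR, with 3 higher at an unadjusted p under 0.05 (8.64% of all rows), 1 called by DESeq2 (1.69%), 0 by limma-voom (0.572%) and a median log2 fold change of 0.47. They were *Ptafr*, the receptor of platelet-activating factor, at 0.67 (standard error 0.26, adjusted p = 0.494), *Pla2g7*, the enzyme that degrades this factor, at 1.5 (0.47, adjusted p = 0.393), *Lta4h*, which makes leukotriene B4, at 0.12 (0.05, adjusted p = 0.593), and the lipoxygenase gene *Aloxe3* at 0.28 (0.10, adjusted p = 0.442), by edgeR's quasi-likelihood test. DESeq2's Wald test called *Pla2g7* of these 4, at adjusted p = 0.0604. Of 29 genes of Gs-coupled receptors and cyclic AMP signalling, on the path that both prostaglandin receptors use, 7 had an identified row and 0 were DEGs by edgeR, with 2 higher and 4 lower at an unadjusted p under 0.05 (8.64% of all rows), 1 called by DESeq2 (1.69%), 0 by limma-voom (0.572%) and a median log2 fold change of −0.30. The receptor genes *Adora2b* (0.90), *Vipr1* (0.41) and *Calcrl* (−0.42) and the kinase subunit genes *Prkacb* (−0.30), *Prkar2b* (−0.58) and *Prkar1b* (3.91, from at most 0.913 CPM in any library) had adjusted p between 0.253 and 0.679. *Arrb1*, which encodes an arrestin that silences receptors of this class, had −1.88 (standard error 0.54, adjusted p = 0.334), with WT libraries at 3.36 to 12.1 CPM and *Scnn1b*-Tg libraries at 0.467 to 5.95 CPM. DESeq2's Wald test called *Arrb1* of these 7, at adjusted p = 0.0113. On the 3 pathway lists together, 20 of 78 genes could be read.

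Markers of other cells moved with some of these levels. Dendritic cell markers, 3 of 8 with a row (*Cd209a*, *Mgl2* and *Flt3*), summed to 86.0, 7.56 and 2.90 CPM in the *Scnn1b*-Tg libraries of batches 1, 2 and 3 and to 0.7999, 3.13 and 5.42 CPM in those of batch 4. In WT they summed to 7.59, 1.61 and 1.26 CPM in batches 1, 2 and 3 and to 0.399, 0.298 and 0.427 CPM in batch 4. Within every batch the *Scnn1b*-Tg sums thus lay above the WT sums, as the *Ptgir* levels did. The same held for the summed neutrophil markers given below, so that it is not particular to dendritic cell markers. The genotype log2 fold changes were 3.33 for *Cd209a*, 2.29 for *Mgl2* and 4.38 for *Flt3*, with a median of 3.33. By edgeR 0 of the 3 were DEGs (0.354% of all rows), while DESeq2 called 2 higher (1.69%) and limma-voom 1 (0.572%). The *Scnn1b*-Tg library of batch 1 stood far above the others, with *Cd209a* at 35.8 CPM and *Mgl2*, the most abundant marker over the 12 libraries, at 47.4 CPM, and it was also the highest library for *Ptgir*, *Ptgs1* and *Ptafr*. *Flt3* was at 0 in 2 *Scnn1b*-Tg and 4 WT libraries. *Cd209a* and *Mgl2* are also known from alternatively activated macrophages, and the sort on Siglec-F, whose purity the authors checked on selected samples, would remove dendritic cells that lack it. The part of either in the levels was not tested. Without that library the log2 fold change of *Ptgir* was 1.70 with adjusted p = 0.00589, and that of *Ptgs1* was 0.56 with adjusted p = 0.593.

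**Figure D3:**
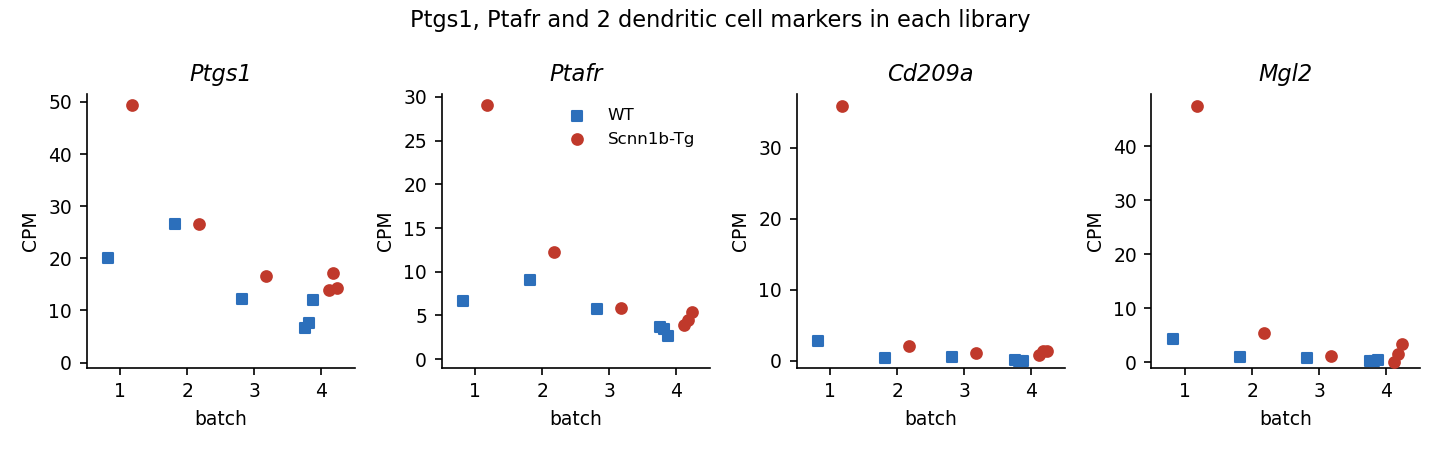
CPM of *Ptgs1*, *Ptafr* and the dendritic cell markers *Cd209a* and *Mgl2* in each of the 12 libraries, by batch, with WT as blue squares and *Scnn1b*-Tg as red circles. The *Scnn1b*-Tg library of batch 1 is the highest for all 4 genes, at 49.5, 29.1, 35.8 and 47.4 CPM.

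Cyclooxygenase 1 is also known from platelets, so their markers were read beside *Ptgs1*. Platelet markers, 2 of 9 with a row, summed to 9.91 to 35.5 CPM in WT and 7.19 to 28.1 CPM in *Scnn1b*-Tg, with *Clec1b* the most abundant and *Itgb3* at 0 in 4 WT and 2 *Scnn1b*-Tg libraries. The log2 fold changes of the pair had opposite signs, at −0.39 for *Clec1b* (standard error 0.18, adjusted p = 0.586) and 2.83 for *Itgb3* (1.57, adjusted p = 0.683, from at most 1.47 CPM), with a median of 1.22, and the part of platelets was not tested. Monocyte and interstitial macrophage markers, 3 of 11, summed to 2.36 to 17.8 CPM in WT and 2.30 to 17.01 CPM in *Scnn1b*-Tg, highest in batch 2 in both genotypes, with *C1qb* the most abundant. *Ptgs1* was at its WT maximum in that batch as well, but at its *Scnn1b*-Tg maximum in batch 1, and the part of these cells was not tested. Neutrophil markers, 5 of 11, summed to 73.8 to 118 CPM in WT and 105 to 163 CPM in *Scnn1b*-Tg. Within every batch their *Scnn1b*-Tg sums lay above the WT sums, at 128.2 against 98.05 CPM in batch 1. In batch 4 the lowest *Scnn1b*-Tg sum, 118.0 CPM, was close to the highest WT sum, 117.7 CPM. The part of neutrophils in the levels was not tested. Of these 5 genes 4 had a positive log2 fold change and 1, *Csf3r*, a negative one (−0.35), with a median of 1.02. The 1 DEG by edgeR (0.354% of all rows) was *Mmp8* at 0.73 (standard error 0.11, adjusted p = 0.0301), and DESeq2 called 4 higher (1.69%) and limma-voom 2 (0.572%).

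Other lists were read in the same way. T and NK cell markers, 5 of 8, summed to 252 to 847.5 CPM in WT and 201 to 730.2 CPM in *Scnn1b*-Tg, nearly all of it from *Cd2*, with *Gzma* at 0 in all 3 *Scnn1b*-Tg libraries of batch 4. *Cd8a*, *Zap70*, *Il7r* and *Gzma* reached at most 4.28, 1.77, 4.25 and 17.05 CPM in any library, so that this sum follows 1 gene. The B cell marker *Jchain*, 1 of 6, stayed at or below 1.199 CPM in WT and 6.05 CPM in *Scnn1b*-Tg. Endothelial markers, 2 of 6, summed to 29.8 to 72.5 CPM in WT and 38.2 to 86.7 CPM in *Scnn1b*-Tg, and epithelial markers, 2 of 6, to 87.1 to 125 CPM in WT and 99.7 to 163 CPM in *Scnn1b*-Tg, led by *Thbd* and *Cdh1*. The other epithelial marker, *Foxj1*, reached at most 2.3 CPM in any library. None of the 4 eosinophil or 8 mast cell and basophil markers had an identified row, and they were not analysed here. Among AM markers *Krt79* was lower in *Scnn1b*-Tg at −0.65 (standard error 0.07, adjusted p = 0.00886 by edgeR's quasi-likelihood test), the 1 DEG of that list (0.354% of all rows). Of the 10 AM markers 7 had a negative and 3 a positive log2 fold change, with a median of −0.18.

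The genes most like each of the 3 were sought by Pearson's r of log2 CPM over the 12 libraries, among 1974 identified rows, as a description. These rows were chosen by the genotype contrast and share their libraries and batches. After each batch mean was taken out, *Ptgir* was most like *Capn15* (r = 0.978), *Cxcr1* (0.977), *Igf1* (0.972), *H2-Aa* (0.969) and *Rgcc* (0.968). *Ptger4* was most like *Usp47* (0.970), *Parvg* (0.968), *Ctsb* (0.957) and *Stard5* (0.957), and *Ptgs1* most like *Alppl2* (0.949), *Cnst* (0.926), *Marcks* (0.921), *Xlr3a* (0.917) and *Atp2a3* (0.914). *Alppl2* and *Xlr3a* were each at 0 in 2 WT libraries and at most 1.03 CPM in WT. Their values of r, here and below, therefore say little. No gene named here for 1 of the 3 was named for another. Between the 3 genes themselves r was 0.863 for *Ptgir* with *Ptger4*, 0.780 for *Ptgir* with *Ptgs1* and 0.573 for *Ptger4* with *Ptgs1*.

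With genotype taken out as well, the values of r between the 3 genes were lower. They were then 0.617 for *Ptgir* with *Ptger4*, 0.124 for *Ptgir* with *Ptgs1* and −0.143 for *Ptger4* with *Ptgs1*. *Ptger4* was then most like *Ube2w* (r = 0.952), *Parvg* (0.947), *Sept7* (0.945), *Stard5* (0.930) and *Cltc* (0.929), so that *Parvg* and *Stard5* stood on both of its lists. *Ptgir* was most like *Cdkn2aip* (0.988), *Gm364* (0.951), *Mtmr11* (0.948), *Ddo* (0.939) and *Nin* (0.937). Of these, *Gm364*, *Mtmr11* and *Ddo* had counts of 0 in several libraries, where a correlation says little. *Ptgs1* was most like *Nanp* (0.905), *Alppl2* (0.868), *H2-Eb1* (0.863), *Sart1* (0.852) and *H2-Ab1* (0.838), and *Nanp* was likewise at 0 in 8 of 12 libraries.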

How the data were processed

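RNA of sorted airway macrophages was sequenced in 12 libraries. The authors aligned reads with HISAT2 to mm10, ignoring strand, and derived gene counts from StringTie transcript coverage, and the deposited counts are not normalized. Rows were given gene identities through the mean normalized count in the paper's gene table, which served for identity only: 1999 genes matched 1 row each within 1e-12, the next closest differed by at least 2.9e-07, and the row number rose with the identifier in 1998 of 1998 neighbouring pairs. The 3 genes and all lists were chosen with earlier results of these data known.

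Fits used edgeR 4.0.16 in R 4.3.3 (TMM factors, edgeR's expression filter, quasi-likelihood test, batch of 4 levels as block) on 16972 rows, with Benjamini-Hochberg adjustment over all of them. Alternatives used DESeq2 1.42.0 and limma 3.58.1, other scaling, no filter, other blocks, parts of the batches, other thresholds and each library left out. Alternatives for the level in batch 4 and for the lipid mediator and cyclic AMP genes were chosen after seeing the data. The genes named are the 3 genes, listed pathway and marker genes with a row, and the 5 most like each of the 3 by r of log2 CPM (prior count 2) on each of 2 scales (1 of these is not reported here), and *Ube2w* was also singled out after its values were seen. The lists cover prostanoids, other lipid mediators, Gs and cyclic AMP signalling, airway macrophages, dendritic cells, monocytes and interstitial macrophages, platelets, neutrophils, eosinophils, mast cells and basophils, B cells, T and NK cells, endothelium, epithelium and the dissociation response. Deviations from genotype means correlated within batches 1, 2 and 3 at 0.599, 0.622 and 0.453, but not between equal numbers of batch 4 (−0.06, 0.001 and −0.006), so only batches were used as pairs. Among 30 pairs of libraries of 1 genotype, 0 were identical. Gene models are from GENCODE M21. The fits and the pairing were tested on simulated data. A first pass mark for the share of changed rows that edgeR recovers was not met, and after that was seen it was replaced by marks on bias and false calls, which were met.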

Additional observations from a re-analysis of the deposited data

Results flagged for a closer look

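The genotype effect of *Ptger4* differed between batch 4 and batches 1 to 3 by −5.03 on the log2 scale, in a test of the difference itself. Other values stand here because 1 library lay far from the other 5 of its genotype, by the gap to its nearest neighbour over the range. Chance alone marks about 1 in 20 such groups, and 60 groups gave 13. That rate holds for values of 1 population, and each group here mixes batches whose levels differ.

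The *Scnn1b*-Tg library of batch 1 was high for *Ptgs1* (49.5 CPM), *Ptafr* (29.1 CPM), *Adora2b* (7.73 CPM), summed airway macrophage markers (66640 CPM), summed dendritic cell markers (86.0 CPM) and summed endothelial markers (86.7 CPM). The WT library of the same batch was high for *Adora2b* (6.77 CPM), dendritic cell markers (7.59 CPM) and the B cell marker (1.199 CPM). Both libraries of batch 1 thus stood out for *Adora2b* and for dendritic cell markers. The WT library of batch 2 was high for *Ptgs2* (1.44 CPM) and for monocyte and interstitial macrophage markers (17.8 CPM), and the *Scnn1b*-Tg library of batch 2 for the B cell marker (6.05 CPM). *Prkacb* was low in the *Scnn1b*-Tg library of batch 3 (26.5 CPM, the nearest being 37.9 CPM).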

How the results depend on the processing

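The log2 fold change of *Ptgir* between genotypes was positive under each alternative run. It passed the threshold in all but the fit without the replicate block (1.88, adjusted p = 0.402) and that on batches 1 to 3 only (2.10, adjusted p = 0.348). With a block of 6 pairs it was 1.83 (adjusted p = 0.0214), and with each library left out it was 1.70 to 1.89 (adjusted p from 0.00311 to 0.0133). DESeq2's Wald test brought *Ptger4* (3.38) and *Ptgs1* (0.68) past the threshold, and no other alternative did. The *Ptger4* value, 3.19, was 1.65 with limma-voom, 1.41 without block, 5.94 in batches 1 to 3, 0.89 in batch 4 and 2.45 to 3.89 with each library left out, with adjusted p between 0.145 and 1.0.

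The batch difference in the effect of *Ptger4* lost its call with limma-voom (−4.92, adjusted p = 0.357) and kept it with each library left out (−5.39 to −4.67, adjusted p from 0.0148 to 0.0598). That of *Ptgs1*, never called, turned to −0.05 without either library of batch 2, within a range of −0.05 to 0.59. The level of *Ptgir* in batch 4 ranged from −0.51 to −0.27 with each library left out and lost its call without the *Scnn1b*-Tg library of batch 1 (−0.27) or 3 (−0.31) or the WT library of batch 2 (−0.34).

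The number of DEGs, 60, was 248 with DESeq2, 97 with limma-voom, 28 with 6 pairs as block and 38 at adjusted p under 0.05. With edgeR it was 0 without block and 0 on batches 1 to 3 only, where 270 and 1009 rows had an unadjusted p under 0.05, and no other tool was run on these. With each library left out it was 22 to 53, with 22 and 23 without the *Scnn1b*-Tg and WT libraries of batch 1, 38 and 39 without those of batch 2, and 32, 35 and 27 without each WT library of batch 4. For the other 17 pathway genes, 132 of 135 alternative values kept their direction and side of the threshold, and DESeq2 added calls of *Ptgs2*, *Pla2g7* and *Arrb1*. Where a call changed, the cause was not tested. With 1 library per genotype in batches 1, 2 and 3, and library kind, flow cell and batch not separable, these data limit the account of any batch difference.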
